A study of Mus musculus with 13 samples.

Results

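The 46 genes described here encode proteins that carry a cell through mitosis and cytokinesis, and they were read in CD4+ T cells kept with or without islet macrophages. The members were given by name, each matched exactly 1 of the 55774 gene entries of the deposited count table, and all 46 were among the 15781 genes that passed the filter on low counts. Before a cell divides, cyclin B binds the kinase Cdk1 and drives entry into mitosis. Kinetochore proteins then tie chromosomes to spindle microtubules, a checkpoint holds back separation until every chromosome is attached, and motors and scaffold proteins of the midzone help pinch the daughter cells apart. A resting T cell transcribes few of these genes, and a T cell that has met its antigen turns them on as it enters the cycle, so that they are widely used as markers of proliferation.

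The T cells were primary naive CD4+ cells from spleens of female NOD/ShiLtJ mice of the 1Doi/DoiJ transgenic line. Its transgenes TcraBDC2.5 and TcrbBDC2.5, which encode a T cell receptor for a beta cell antigen, are shared by all groups. In 5 libraries the T cells had been kept for 96 hours with islet macrophages of NOD mice given 1 low dose of streptozotocin (STZ), a beta cell toxin, at 4 weeks of age (STZ-macrophage co-culture). In 4 libraries the macrophages came from donors given control buffer at that age (control-macrophage co-culture), and 4 libraries held the T cells alone, which are labelled untreated. Islets were taken 10 days after the injection, at 5.5 weeks of age. The macrophages were enriched with magnetic beads and not sorted, and after co-culture live cells positive for CD45, Thy1.2 and CD4 were sorted. The labels call the replicates biological. Whether the T cells alone spent any time in culture is not stated, and effects of culture and of macrophages cannot be told apart against them. Neither the age of the T cell donors nor the STZ dose is given in the labels.

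The labels give 2 collection days as batches, and they were not balanced over the groups. Day 1 held STZ-macrophage replicates 1 and 5, control-macrophage replicates 1, 2 and 4 and all 4 libraries of T cells alone. Day 2 held STZ-macrophage replicates 2, 3 and 4 and control-macrophage replicate 3. Total counts ranged from 33.4 to 58.8 M (megacounts) in STZ-macrophage co-culture, 30.6 to 61.3 M in control-macrophage co-culture and 17.3 to 39.8 M in T cells alone. Levels are given as CPM, the count of a gene over the TMM-scaled total of its library in M, and values of a group run in replicate order. Of the markers of the sorted cells, Cd4 lay at 786 to 1008 CPM in STZ-macrophage, 1029 to 1226 CPM in control-macrophage and 515 to 844 CPM in T cells alone. In that order, Thy1 lay at 88.9 to 138.5, 98.8 to 179.3 and 26.8 to 43.4 CPM. Cd3e lay at 1012 to 1341, 1134 to 2175 and 921.8 to 1844 CPM. Of 10 T cell markers, 2 were called higher and 2 lower with STZ macrophages than in T cells alone. With control macrophages, 4 were called higher and 0 lower. Summed over 14 macrophage markers, the levels were 34.0 to 147 CPM in STZ-macrophage co-culture, 34.9 to 133 CPM in control-macrophage co-culture and 2.96 to 13.2 CPM in T cells alone. Of the 11 macrophage markers tested, 7 were called higher with STZ macrophages and 5 with control macrophages than in T cells alone. Mpeg1, a pore-forming protein of macrophages, averaged 21.2 ± 11.2 CPM in STZ-macrophage, 42.9 ± 22.2 CPM in control-macrophage and 0.0146 ± 0.0293 CPM in T cells alone, and Csf1r, the receptor for the macrophage growth factor, 3.00 ± 2.09, 0.448 ± 0.304 and 0.622 ± 0.328 CPM (SD, n = 5, 4 and 4). Mertk was at 0 in all control-macrophage libraries and Cd14 in all T cells alone. Summed over 6 CD8 and NK cell markers, the levels were 201 to 499 CPM in STZ-macrophage co-culture, 122 to 755 CPM in control-macrophage co-culture and 17.8 to 42.4 CPM in T cells alone, while one of them, Cd8b1, had a log2 fold change against T cells alone of -1.20 with STZ macrophages and -0.46 with control macrophages. In control-macrophage co-culture that sum averaged 333.0 CPM. There Cd8a, Cd8b1, Klrb1c and Klrk1 averaged 5.34, 19.4, 0.194 and 30.5 CPM and Ncr1 was at 0, so Nkg7 held most of it. Summed over 6 islet endocrine markers, STZ-macrophage replicates 2 and 4 held 153 and 114 CPM, and the other 11 libraries at most 3.24 CPM. The part of other cells in the members' levels was not tested.

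All 46 members rose in both co-cultures relative to the T cells alone (edgeR, adjusted p below 0.05). The members took 1.14 to 1.28% of all counts in STZ-macrophage co-culture, 1.29 to 1.50% in control-macrophage co-culture and 0.0228 to 0.0352% in T cells alone. Of all genes tested, 20.8% were called higher with STZ macrophages and 23.1% with control macrophages. The median log2 fold change of the members was 8.39 with STZ macrophages and 8.51 with control macrophages, against -0.05 and -0.13 over all tested genes, and it was the same with the 5 members that had no count in T cells alone set to the bounds given below. Both comparisons use the same 4 libraries of T cells alone, so their values are given side by side and are not independent. These counts describe the members and do not stand as support. Only 12 of the 46 reached the filter's cutoff of 0.285 CPM in all 4 libraries of T cells alone, and the other 34 passed it through the co-cultures where they are high. In bulk RNA, a larger share of dividing cells and more of these transcripts per dividing cell cannot be told apart.

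**Figure D1:**
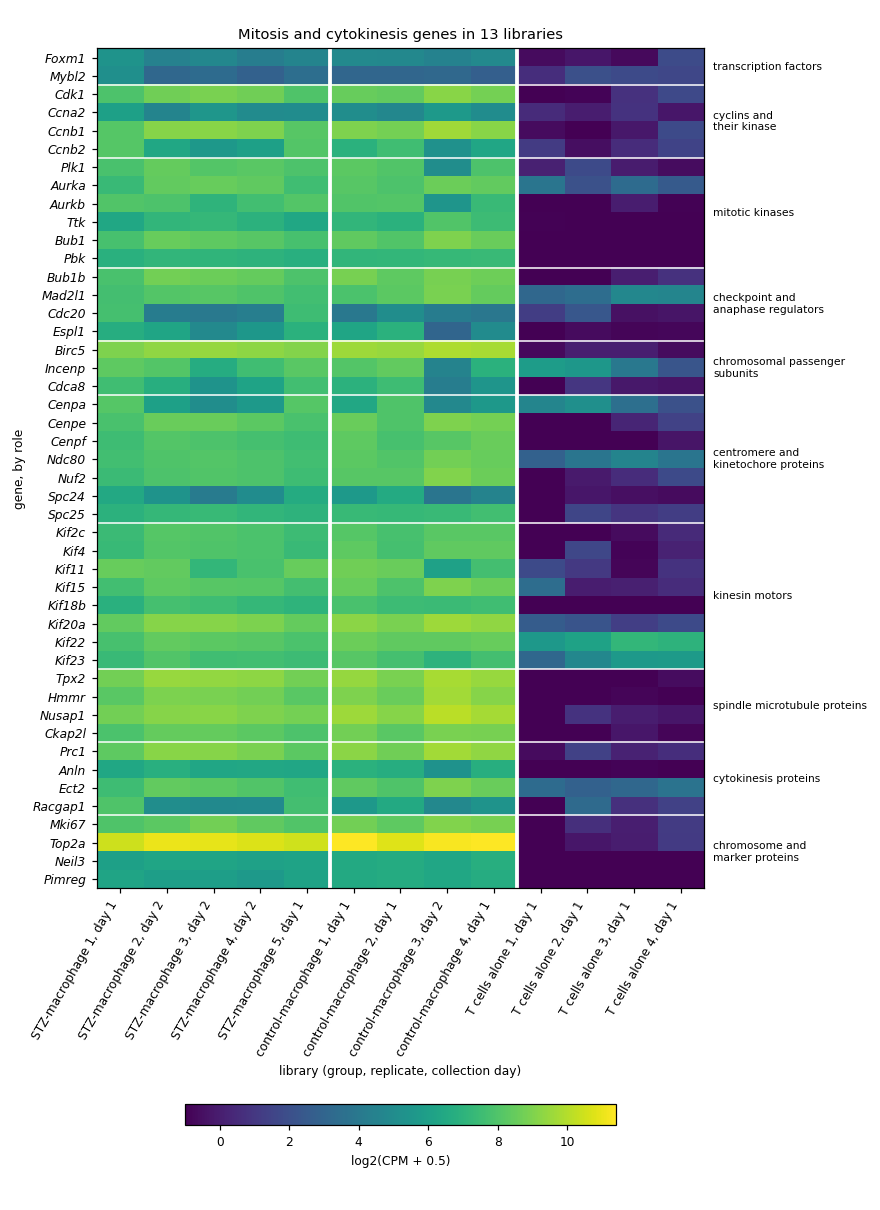
Level of each of the 46 genes (rows, grouped by role) in each of the 13 libraries (columns, labelled with group, replicate and collection day), as log2(CPM + 0.5); white lines separate the groups and the roles. The 4 libraries of T cells alone are dark for most genes, Kif22 and Kif23 have the highest means there, and within the co-cultures rows such as Cdc20 and Racgap1 are bright in STZ-macrophage replicates 1 and 5 and dim in the other 3 STZ-macrophage libraries.

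In T cells alone, 8 to 25 of the 46 members had no count in a given library, while none was at 0 in any co-culture. Bub1, Pbk, Kif18b, Neil3 and Pimreg had no count in any of the 4 libraries of T cells alone. Against a floor of 3 counts over that group, which covers counting error only, Bub1 was at least 12699-fold higher with STZ macrophages and at least 16787-fold higher with control macrophages. The bounds for the other 4 ranged from at least 2873-fold for Pimreg to at least 7151-fold for Kif18b with STZ macrophages. Ttk had 1 count in T cells alone, which puts the ratio with STZ macrophages at 15780 with an exact 95% interval of 2832 to 623303. At the other end stood 8 members with a mean above 5 CPM in T cells alone, namely Kif22, Kif23, Incenp, Cenpa, Mad2l1, Ndc80, Ect2 and Aurka.

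Many genes of the G2 and M phases share a promoter element, the cell cycle genes homology region (CHR), which the MuvB complex binds with B-Myb (encoded by Mybl2) or Foxm1 in cycling cells and as the repressive DREAM complex in resting cells. It is often found a short way downstream of CCAAT boxes, which are bound by NF-Y. These letters were looked for in the promoter windows of RefSeq (GRCm38.p6, 250 bases before to 50 after a gene's start). The members were given as genes of mitosis, so the shares below describe that list. The part of these elements in the rise of the members was not tested. The table held 39 windows for 37 of the 46 members. The CHR core TTTGAA, read on either strand and so also as TTCAAA, was found in 30 of the 39 windows, or 76.9%, against 12.7% of the windows of tested genes and 17.9% of all 32851 windows. CCAAT on either strand (also ATTGG) was found in 29 of the 39, or 74.4%, against 38.3% of the windows of tested genes and 37.4% of all windows. Both occurred in 66.7% of the members' windows, in 5.2% of those of tested genes and in 6.95% of all windows. Of the 40 matches to the CHR core in members, 30 began no more than 60 bases before the start or after it. That stretch, chosen after the data were seen, held the core in 71.8% of the members' windows. It did so in 3.59% of the windows of tested genes and 5.5% of all windows. In the 150 bases before the start alone, the share was 33.3% for the members, 5.66% for tested genes and 9.07% for all windows. The related letters TTTAAA occurred in 23.1% of the members' windows, against 9.33% of those of tested genes and 13.2% of all.

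The windows below run from 100 bases before the start to 50 after it, 5′ to 3′ on the gene's strand, and capitals mark TTTGAA or TTCAAA and CCAAT or ATTGG. Cdc20, Ccnb2, Racgap1 and Espl1 are shown because they varied more than most members among the co-cultures, Top2a because it had the highest level, and Hmmr, Kif18b and Bub1 because they had 3 counts or fewer in all T cells alone. Their positions are chr4:118437294-118437443, chr9:70421505-70421654, chr15:99651607-99651756, chr15:102296193-102296342, chr11:99024140-99024289, chr11:40733388-40733537, chr11:102925075-102925224 and chr2:127831810-127831959 of GRCm38.p6, of which the Espl1 window lies on the plus strand and the other 7 on the minus strand.
Cdc20: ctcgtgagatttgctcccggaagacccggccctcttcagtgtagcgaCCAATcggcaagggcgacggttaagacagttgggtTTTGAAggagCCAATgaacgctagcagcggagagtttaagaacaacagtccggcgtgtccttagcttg
Ccnb2: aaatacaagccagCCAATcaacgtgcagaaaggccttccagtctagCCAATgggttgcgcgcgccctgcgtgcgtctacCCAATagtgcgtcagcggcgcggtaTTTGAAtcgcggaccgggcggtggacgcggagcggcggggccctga
Racgap1: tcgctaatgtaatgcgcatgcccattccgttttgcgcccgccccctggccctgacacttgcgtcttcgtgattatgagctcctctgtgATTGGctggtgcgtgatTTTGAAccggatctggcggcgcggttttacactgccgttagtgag
Espl1: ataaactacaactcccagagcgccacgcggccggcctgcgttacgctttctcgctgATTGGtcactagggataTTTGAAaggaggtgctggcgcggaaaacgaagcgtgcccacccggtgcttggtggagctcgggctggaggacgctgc
Top2a: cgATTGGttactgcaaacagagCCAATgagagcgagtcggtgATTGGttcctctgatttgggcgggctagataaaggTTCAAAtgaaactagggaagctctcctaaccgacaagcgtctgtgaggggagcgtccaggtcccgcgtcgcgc
Hmmr: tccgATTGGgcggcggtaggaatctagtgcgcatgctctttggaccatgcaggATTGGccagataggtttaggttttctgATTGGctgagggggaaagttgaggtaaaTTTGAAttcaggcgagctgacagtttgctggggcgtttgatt
Kif18b: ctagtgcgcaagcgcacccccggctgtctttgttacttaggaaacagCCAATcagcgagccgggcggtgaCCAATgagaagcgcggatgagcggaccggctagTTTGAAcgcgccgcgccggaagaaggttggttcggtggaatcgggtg
Bub1: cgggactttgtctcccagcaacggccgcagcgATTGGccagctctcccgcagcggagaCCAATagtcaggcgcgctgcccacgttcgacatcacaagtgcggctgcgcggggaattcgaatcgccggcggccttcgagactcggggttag
With the start at 0, the CHR core began at position -18 in Cdc20, 4 in Ccnb2, 5 in Racgap1, -27 in Espl1, -23 in Top2a, 8 in Hmmr and 3 in Kif18b. The Bub1 window held CCAAT letters but no match to the CHR core, which says only that these letters are not in it. A match is a description of the letters and not a measured binding site.

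**Figure D2:**
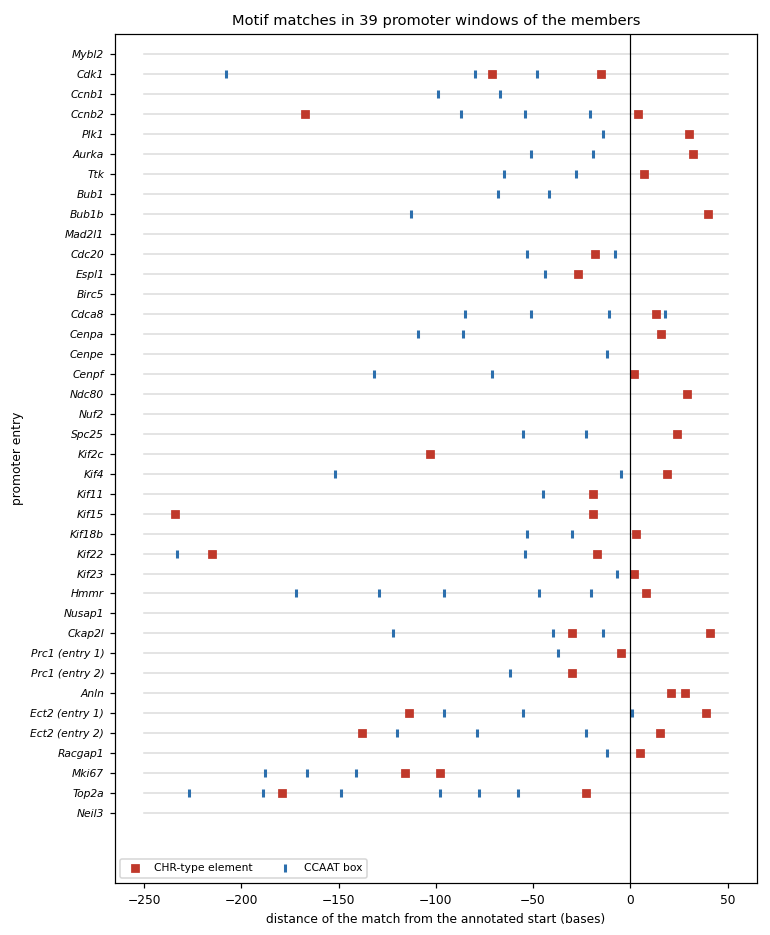
Positions of matches in the 39 promoter windows of 37 members (rows), in bases from the annotated start (vertical line); red squares are matches to the CHR core and blue bars matches to CCAAT, each on either strand. Of the 40 red squares, 30 lie within 60 bases before the start or after it.

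The transcription factors stood lowest of all members per length of transcript. Foxm1, which with Mybl2 activates many of the genes below, had 41.2, 21.2, 26.3, 18.8 and 23.8 CPM in STZ-macrophage co-culture, against 28.2, 27.3, 22.1 and 28.4 CPM in control-macrophage co-culture and 0.153, 0.356, 0.112 and 3.07 CPM in T cells alone. All 9 co-cultures lay above all T cells alone, of which replicate 4 was the highest by far. The fold change was 5.08 ± 0.92 (log2, standard error) with STZ macrophages and 4.95 ± 0.89 with control macrophages. Mybl2, the mouse B-Myb gene, had 36.0, 8.38, 9.71, 6.75 and 10.6 CPM in STZ-macrophage co-culture, against 8.16, 8.09, 8.67 and 6.22 CPM in control-macrophage co-culture and 1.05, 3.54, 2.98 and 2.63 CPM in T cells alone. Its groups did not overlap the T cells alone either, but with a log2 fold change of 2.82 with STZ macrophages and 1.88 with control macrophages it was among the 3 smallest rises in both comparisons. STZ-macrophage replicate 1 lay far above the other 8 co-cultures for this gene. On the scale of CPM per kb of the longest coding transcript, Foxm1 and Mybl2 averaged 5.64 and 3.92 with STZ macrophages, against 5.70 and 2.13 with control macrophages.

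Of the cyclins and their kinase, Cdk1 and Ccnb1 reached far higher levels in every co-culture than Ccna2, the cyclin of S phase and early mitosis, which lay at 23.6 to 66.8 CPM in STZ-macrophage and 26.1 to 50.03 CPM in control-macrophage co-culture. Cdk1, the kinase they activate, lay at 241 to 477 CPM in STZ-macrophage and 348 to 588 CPM in control-macrophage co-culture. Ccnb1, the main mitotic cyclin, had 285, 564, 594, 506 and 291 CPM in STZ-macrophage co-culture, against 513, 454, 798 and 591 CPM in control-macrophage co-culture and 0.153, 0, 0.380 and 2.92 CPM in T cells alone. It was lowest with STZ macrophages in the 2 libraries of day 1, replicates 1 and 5. Ccnb2, the other B-type cyclin, had 276, 83.0, 48.5, 66.6 and 267 CPM in STZ-macrophage co-culture, against 120.4, 195, 37.7 and 81.8 CPM in control-macrophage co-culture and 1.75, 0.178, 0.984 and 2.34 CPM in T cells alone. For Ccnb2 those same 2 libraries were the highest of the 9 co-cultures and control-macrophage replicate 3 the lowest. The 2 cyclins thus ran in opposite directions among the co-cultures, with a ratio of Ccnb2 to Ccnb1 CPM from 0.0473 in control-macrophage replicate 3 to 0.968 in STZ-macrophage replicate 1.

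Mitotic kinases were among the members with the emptiest baseline. Bub1, a checkpoint kinase of the kinetochore, had 222, 366, 322, 290.4 and 221 CPM in STZ-macrophage co-culture and 335, 264, 521 and 384 CPM in control-macrophage co-culture and no count in T cells alone. Ttk, the kinase (Mps1) that starts checkpoint signalling, had 82.7, 142, 152, 125 and 83.6 CPM in STZ-macrophage co-culture, against 143, 119.6, 264 and 181 CPM in control-macrophage co-culture and 0.0307, 0, 0 and 0 CPM in T cells alone. Pbk, a mitotic kinase also known as TOPK, had 116, 145, 139, 130.5 and 115 CPM in STZ-macrophage co-culture and 142, 146, 160.1 and 169 CPM in control-macrophage co-culture and no count in T cells alone. Its highest co-culture exceeded its lowest by 1.47 times, the narrowest span of any member. Aurkb, the kinase of the chromosomal passenger complex, lay at 135 to 268 CPM in STZ-macrophage co-culture, 44.4 to 270.1 CPM in control-macrophage co-culture and 0 to 0.492 CPM in T cells alone. Aurka, which acts at spindle poles, kept 3.78 to 13.5 CPM in T cells alone and rose by 4.59 ± 0.39 with STZ macrophages and 5.10 ± 0.38 with control macrophages (log2, standard error). Plk1, which drives several steps from entry to cytokinesis, lay at 228 to 352 CPM with STZ macrophages and 32.95 to 306 CPM with control macrophages, where only replicate 3 was under 100 CPM.

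Checkpoint and anaphase regulators included the 2 most uneven members, Cdc20 and Espl1. Cdc20 (chr4:118432901-118437352, minus strand), which activates the anaphase-promoting complex and is held in check by Mad2 and BubR1, had 216, 18.0, 15.8, 19.3 and 189 CPM in STZ-macrophage co-culture, against 14.9, 33.2, 17.8 and 14.5 CPM in control-macrophage co-culture and 1.90, 4.58, 0.246 and 0.322 CPM in T cells alone. The 2 STZ-macrophage libraries of day 1 stood apart from the other 7 co-cultures, which lay close together, and the 2 macrophage groups overlapped. Bub1b, which encodes BubR1, had 228, 436, 386, 354 and 242 CPM in STZ-macrophage co-culture, against 468, 321, 459 and 402 CPM in control-macrophage co-culture and 0, 0, 0.515 and 1.23 CPM in T cells alone. Mad2l1, which encodes Mad2, lay at 203 to 295 CPM with STZ macrophages, 239 to 487 CPM with control macrophages and 8.41 to 26.3 CPM in T cells alone. Espl1, which encodes separase, the protease that cuts cohesin at anaphase, had 106, 77.2, 28.2, 46.9 and 119.8 CPM in STZ-macrophage co-culture, against 77.3, 120.2, 7.74 and 30.9 CPM in control-macrophage co-culture and 0, 0.133, 0.0671 and 0.0878 CPM in T cells alone. It was lowest in control-macrophage replicate 3.

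The chromosomal passenger subunits differed among themselves, although their proteins form a complex with Aurkb at centromeres and later at the midzone. Birc5 (chr11:117849251-117855743, plus strand), which encodes survivin, had 512, 649.7, 691, 634 and 544 CPM in STZ-macrophage co-culture, against 757, 714, 955 and 873 CPM in control-macrophage co-culture and 0.123, 0.533, 0.515 and 0.146 CPM in T cells alone. All STZ-macrophage libraries lay below all control-macrophage libraries, and both lay far above the T cells alone. Incenp, the scaffold that binds and activates Aurkb, had 316, 271, 103, 192 and 296 CPM in STZ-macrophage co-culture, against 275, 338, 23.0 and 121 CPM in control-macrophage co-culture and 56.6, 46.6, 15.1 and 4.30 CPM in T cells alone. Control-macrophage replicate 3 fell within the range of the T cells alone, where replicates 1 and 2 were several times higher than replicates 3 and 4. Its log2 fold change against T cells alone was 3.90 ± 0.87 with STZ macrophages and 2.71 ± 0.74 with control macrophages. In the log2 table that the authors adjusted before deposit, tested with limma, those values were 1.41 and -0.34 and neither passed the test. Cdca8, which encodes borealin, lay at 40.9 to 197 CPM with STZ macrophages, 18.7 to 186 CPM with control macrophages and 0 to 1.47 CPM in T cells alone.

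Of the 7 centromere and kinetochore proteins, Cenpa and Cenpe carry opposite patterns. Cenpa, the histone H3 variant that marks centromeres, had 284, 65.7, 32.98, 51.2 and 285 CPM in STZ-macrophage co-culture, against 87.6, 255, 27.6 and 47.8 CPM in control-macrophage co-culture and 24.1, 36.2, 10.9 and 3.72 CPM in T cells alone. Ranges of the co-cultures and of the T cells alone overlapped for this gene, and no other member overlapped the T cells alone in both comparisons. In the authors' adjusted log2 table its change was 1.22 with STZ macrophages and -0.10 with control macrophages, and neither passed limma's test. Cenpe, a kinetochore motor that brings chromosomes to the spindle equator, had 231, 378, 378, 315 and 232 CPM in STZ-macrophage co-culture, against 379, 256, 510.2 and 450.2 CPM in control-macrophage co-culture and 0, 0, 0.716 and 2.25 CPM in T cells alone. Nuf2, a subunit of the Ndc80 complex that grips microtubules, had 172, 245, 265, 244 and 185 CPM in STZ-macrophage co-culture, against 285, 290.3, 529.8 and 391.7 CPM in control-macrophage co-culture and 0, 0.445, 0.984 and 2.93 CPM in T cells alone. As for Birc5, every STZ-macrophage value was below every control-macrophage value. Ndc80 itself had a higher baseline, 6.60 to 23.3 CPM in T cells alone, and rose by 3.76 ± 0.33 with STZ macrophages and 4.45 ± 0.33 with control macrophages (log2, standard error). Spc25 and Spc24, the inner subunits, averaged 143 ± 15.9 and 55.8 ± 36.4 CPM with STZ macrophages, against 174 ± 19.6 and 45.2 ± 36.3 CPM with control macrophages (SD, n = 5 and 4). Cenpf, a large protein of the outer kinetochore, lay at 185 to 275 CPM with STZ macrophages, 219.7 to 378 CPM with control macrophages and 0 to 0.322 CPM in T cells alone.

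Among the kinesin motors were the smallest and some of the largest rises. Kif22 (chr7:127027729-127042471, minus strand), a chromosome-bound kinesin (Kid) that pushes chromosome arms, had 220.3, 347, 313, 292 and 233 CPM in STZ-macrophage co-culture, against 394, 327, 336 and 371 CPM in control-macrophage co-culture and 49.0, 69.7, 148 and 128 CPM in T cells alone. Its rise was the smallest of all members, 1.34 ± 0.34 with STZ macrophages (adjusted p = 0.00632, edgeR) and 1.80 ± 0.31 with control macrophages (adjusted p = 4.7e-04). Kif23, the kinesin of centralspindlin in the midzone, had 171, 264, 196, 201 and 178 CPM in STZ-macrophage co-culture, against 288, 211, 129.6 and 210.1 CPM in control-macrophage co-culture and 8.44, 26.1, 51.8 and 53.4 CPM in T cells alone. For both genes, T cells alone of replicates 3 and 4 were above those of replicates 1 and 2, the reverse of Incenp and Cenpa. Kif20a, the kinesin that carries the passenger complex to the midzone, had 345, 561, 559, 504 and 352 CPM in STZ-macrophage co-culture, against 618, 476, 777 and 655 CPM in control-macrophage co-culture and 5.61, 4.12, 1.99 and 2.91 CPM in T cells alone. About 29.3% of its exonic bases overlap Cdc23 on the other strand. Cdc23 lay at 62.6 to 250 CPM in the co-cultures and 75.7 to 144 CPM in T cells alone. Its part in the level of Kif20a was not tested. The library kit does not keep the strand, so reads of such a pair cannot be told apart where they overlap. The same holds for 12.5% of the exonic bases of Ccna2 (with Exosc9, which lay at 57.0 to 160.0 CPM in the co-cultures), 15.1% of those of Kif4 (with Pdzd11) and 11.1% of those of Prc1 (with Rccd1). Kif15, a spindle motor that works beside Kif11, had 198, 317, 289.6, 278 and 206 CPM in STZ-macrophage co-culture, against 368, 246, 505 and 398 CPM in control-macrophage co-culture and 10.5, 0.489, 0.559 and 0.966 CPM in T cells alone. T cells alone replicate 1 was the only one of that group above 1 CPM. Kif18b, which shortens astral microtubules, had 116, 213, 187, 152 and 133 CPM in STZ-macrophage co-culture and 226, 179, 176 and 195 CPM in control-macrophage co-culture and no count in T cells alone. Kif11 (Eg5), which pushes spindle poles apart, lay at 148 to 371 CPM with STZ macrophages and 67.9 to 415 CPM with control macrophages, Kif2c (MCAK), which corrects attachments, at 176 to 283 and 221 to 297 CPM, and Kif4, a chromosome-bound kinesin, at 165 to 274 and 216 to 336 CPM.

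The 4 spindle microtubule proteins were at or near 0 in T cells alone, and the highest co-culture of each exceeded the lowest by 1.98 to 2.70 times. Nusap1, which bundles microtubules near chromosomes, had 434, 574, 590.2, 521 and 445 CPM in STZ-macrophage co-culture, against 756, 559.7, 1104 and 854 CPM in control-macrophage co-culture and 0, 1.29, 0.492 and 0.351 CPM in T cells alone. Control-macrophage replicate 2 fell within the STZ-macrophage range and the other 3 control-macrophage libraries lay above it. Tpx2, which targets and activates Aurka, lay at 428 to 722 CPM with STZ macrophages, 486 to 883 CPM with control macrophages and 0 to 0.176 CPM in T cells alone. Hmmr, a spindle and hyaluronan-binding protein, lay at 301 to 492 CPM with STZ macrophages and 384 to 812 CPM with control macrophages, with 3 counts in all T cells alone. Ckap2l, a spindle protein also called radmis, lay at 240.2 to 361 and 298 to 475 CPM.

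Cytokinesis proteins again split. Prc1, which crosslinks the antiparallel microtubules of the midzone, had 319.7, 594, 563, 486 and 313 CPM in STZ-macrophage co-culture, against 602, 422, 823 and 645 CPM in control-macrophage co-culture and 0.153, 2.18, 0.629 and 1.05 CPM in T cells alone. Racgap1 (chr15:99620496-99651656, minus strand), the partner of Kif23 in centralspindlin, had 255, 32.9, 29.1, 30.5 and 208 CPM in STZ-macrophage co-culture, against 48.7, 93.4, 27.3 and 41.5 CPM in control-macrophage co-culture and 0, 9.11, 1.13 and 2.14 CPM in T cells alone. As for Cdc20, STZ-macrophage replicates 1 and 5 were far above the rest. Ect2, which centralspindlin recruits to switch on RhoA, lay at 189 to 339.8 CPM with STZ macrophages, 249 to 522 CPM with control macrophages and 6.76 to 12.6 CPM in T cells alone. Anln, the anillin scaffold of the contractile ring, lay at 80.3 to 112 CPM with STZ macrophages and 40.2 to 120.4 CPM with control macrophages, with 2 counts in all T cells alone.

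Chromosome and marker proteins held the most abundant member. Top2a (chr11:98992943-99024189, minus strand), the topoisomerase that untangles sister chromatids, had 1406, 2116, 1972, 1696 and 1478 CPM in STZ-macrophage co-culture, against 2696, 1805, 2503 and 2710 CPM in control-macrophage co-culture and 0, 0.356, 0.492 and 1.67 CPM in T cells alone. At 332 CPM per kb with STZ macrophages and 465 CPM per kb with control macrophages it ranked highest of the members per length of transcript, followed by Birc5 and Ccnb1. Mki67, which encodes the proliferation marker Ki-67 that coats mitotic chromosomes, had 252, 314, 436, 334 and 264 CPM in STZ-macrophage co-culture, against 433, 322, 539 and 468 CPM in control-macrophage co-culture and 0, 1.11, 0.537 and 1.70 CPM in T cells alone. Neil3, a DNA glycosylase induced in cycling cells, and Pimreg, a mitotic regulator, had no count in T cells alone and lay at 64.8 to 78.7 and 52.5 to 74.4 CPM with STZ macrophages, against 81.3 to 108 and 83.3 to 103 CPM with control macrophages. For both, the STZ-macrophage range lay wholly below the control-macrophage range.

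Between the co-cultures, no member passed the test in either direction (edgeR, STZ-macrophage against control-macrophage), where 0.152% of all tested genes were called higher and 0.171% lower. The log2 fold change was negative for 31 of the 46 (30 by size factors or library sizes, where Kif23 turns positive), or 67.4%, against 55.4% of all tested genes, and its median was -0.47 over the members and -0.13 over all tested genes. At an unadjusted p below 0.05, 7 members were lower, namely Ttk, Ect2, Bub1, Hmmr, Pimreg, Kif20a and Ndc80, and 1, Cdc20, was higher. Those are 15.2 and 2.17% of the members, against 14.8 and 7.99% of all tested genes, a share of lower members near that of all genes. The 7 lower members became 14 without T cells alone replicate 1, 12 without T cells alone replicate 4, 4 without STZ-macrophage replicate 5 or T cells alone replicate 2, and 2 without control-macrophage replicate 3 or 4, and the number of higher ones ran from 0 to 5 with 1 library left out. The ranges of Birc5, Nuf2, Neil3 and Pimreg did not overlap and were lower with STZ macrophages, which is 8.70% of the members against 5.08% of all tested genes. No member had a range wholly above, against 2.45% of all tested genes. None of the 10 T cell marker genes passed the test either (lowest adjusted p = 0.139, edgeR), while all 10 had a negative log2 fold change, with a median of -0.56, and 8 of 10 an unadjusted p below 0.05. Their summed level was 7687 to 10176 CPM in STZ-macrophage co-culture and 9986 to 16862 CPM in control-macrophage co-culture. The part of this difference in that of the members was not tested.

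**Figure D3:**
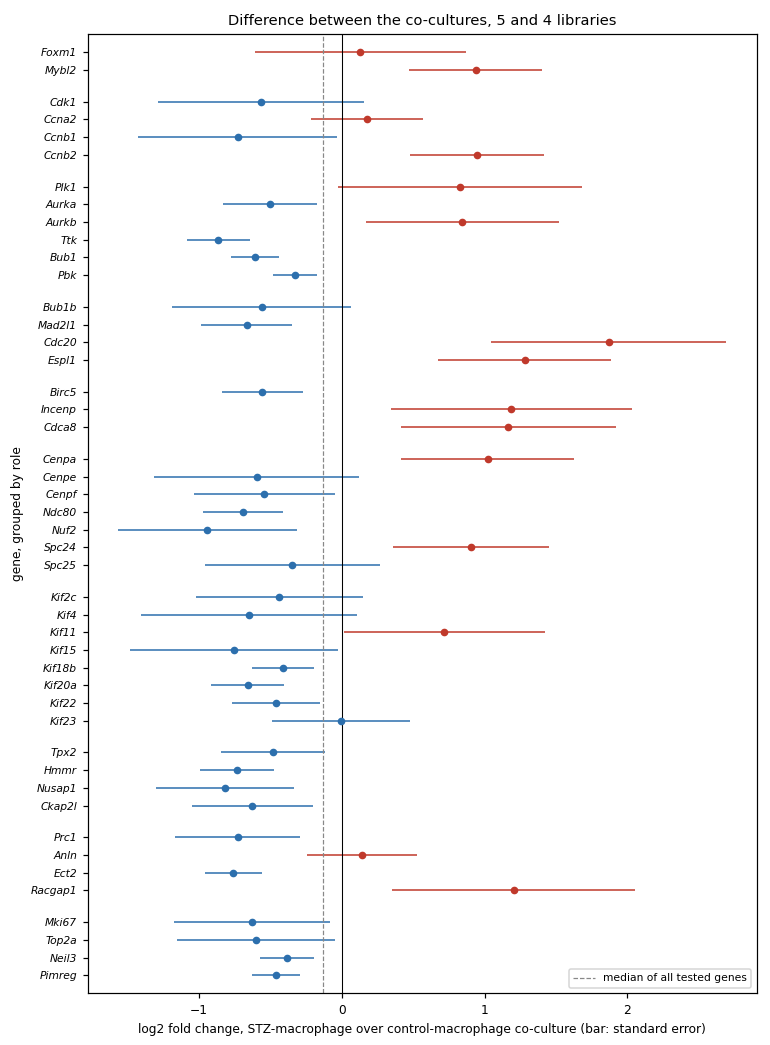
Log2 fold change of each member, STZ-macrophage over control-macrophage co-culture, with its standard error (edgeR, all 13 libraries in the fit, 5 against 4 in the contrast), grouped by role; red points are positive, blue negative, and the dashed line is the median of all tested genes at -0.13. Of the 46 points, 31 are negative, none passed the test, and Cdc20 lies farthest to the right at 1.87.

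Other fits made more calls. Fitted to the 9 co-cultures alone, edgeR called 13 members lower and 3 higher, where 8.06% of the 14881 tested genes were called lower and 10.1% higher. That fit differs in the libraries behind the spread, the filter and the scaling, and which of these moved the calls was not tested. The standard error of the log2 fold change was 0.625 for Nuf2 and 0.552 for Top2a with all 13 libraries. In the 9 co-cultures alone it was 0.115 and 0.166. For Espl1 it was 0.605 with all 13 and 0.635 in the 9. The 3 higher members were Cdc20 (log2 fold change 2.08, adjusted p = 0.0466), Racgap1 (1.40, adjusted p = 0.0323) and Ccnb2 (1.14, adjusted p = 0.0274). The lower ones were led by Nuf2 (-0.75, adjusted p = 0.00915) and Ttk (-0.68, adjusted p = 0.0165), and held Nusap1, Ndc80, Hmmr, Ccnb1, Ect2, Mad2l1, Birc5, Kif15, Kif20a, Prc1 and Bub1. DESeq2 on all 13 libraries called Ttk and Hmmr lower and none higher, where 1.39% of all tested genes were called lower and 2.73% higher.

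Within the collection days, no member passed the test either. On day 1, with 2 STZ-macrophage and 3 control-macrophage libraries, 33 of 46 members were negative with a median of -0.56, against 58.6% of all tested genes with a median of -0.19, and 0.215% of all tested genes were called. At an unadjusted p below 0.05, 5 members were lower and 2 higher, against 6.55 and 9.75% of all tested genes. On day 2, with 3 STZ-macrophage libraries and 1 control-macrophage library, which was assumed to vary like the others, 33 were negative with a median of -0.23, against 56.9% of all tested genes with a median of -0.16, and 0% of all tested genes were called. At an unadjusted p below 0.05, 3 members were lower and 4 higher, against 5.54 and 8.48% of all tested genes. Cdc20 stood at 3.27 ± 0.90 on day 1 (adjusted p = 0.134) and -0.01 ± 1.11 on day 2 (adjusted p = 0.998). For Plk1 it was -0.19 ± 0.69 on day 1 and 3.22 ± 1.07 on day 2. Tested directly, the day difference was called for no member, and for 0.00634% of all tested genes (edgeR). At an unadjusted p below 0.05 it was so for 3 members and for 9.82% of all tested genes, and DESeq2 called 1 member. In the fit to the 9 co-cultures it was called for 6 members, Plk1, Aurkb, Kif22, Kif23 and Anln with a more positive value on day 2 and Cdc20 with a more negative one, where 12.1% of the tested genes were called.

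Comparing the days over both co-cultures, 1 member, Ccnb2, was lower on day 2 than on day 1, with a log2 fold change of -1.95 (standard error 0.48, adjusted p = 0.0497), where 1.05% of all tested genes were called lower and 2.10% higher. The next smallest adjusted p-values belonged to Cenpa (-2.40, adjusted p = 0.0536), to Ttk, Ect2 and Bub1, whose values were positive (0.78, 0.68 and 0.60, adjusted p = 0.0592 to 0.0642), and to Spc24 and Espl1, whose values were negative (-1.79 and -1.87, adjusted p = 0.0714 and 0.0778). The call of Ccnb2 rests on the libraries used: it was lost when any 1 of 8 libraries was left out (STZ-macrophage replicates 1 to 5 and control-macrophage replicates 1, 2 and 3), and without T cells alone replicate 2 there were 7 calls.

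The members fell into an uneven and a less uneven set among the 9 co-cultures, a division drawn after the values were seen and given without a test. In 12 members the highest co-culture exceeded the lowest by 5.79 to 15.5 times, namely Mybl2, Ccnb2, Plk1, Aurkb, Cdc20, Espl1, Incenp, Cdca8, Cenpa, Spc24, Kif11 and Racgap1. In the other 34 it did so by 1.47 to 3.19 times. Among the uneven 12, 10 were lowest in control-macrophage replicate 3, and for 10 the 2 highest libraries came from STZ-macrophage replicates 1 and 5 and control-macrophage replicate 2. Of the other 34, 20 were highest in control-macrophage replicate 3. The members took 1.29% of all counts in that library, the lowest share of the control-macrophage libraries. After TMM scaling their summed level there was 17381 CPM, the highest of all libraries. How far the scaling set these ranks was not tested. All 12 had a positive log2 fold change between STZ-macrophage and control-macrophage co-culture and a negative one between day 2 and day 1.

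The uneven set cut across complexes whose subunits work together. Among the co-cultures, the ratio of Incenp to Birc5 CPM spanned 25.7 times, from 0.0241 in control-macrophage replicate 3 to 0.618 in STZ-macrophage replicate 1, and that of Cdca8 to Birc5 spanned 19.0 times. The ratio of Spc24 to Ndc80 spanned 15.9 times, while Spc25 to Ndc80 spanned 1.62 and Nuf2 to Ndc80 1.44 times. Racgap1 to Kif23 spanned 11.9 times and Cdc20 to Mad2l1 28.7 times. These pairs were chosen after the values were seen, and a ratio within a pair shows unequal change only.

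**Figure D4:**
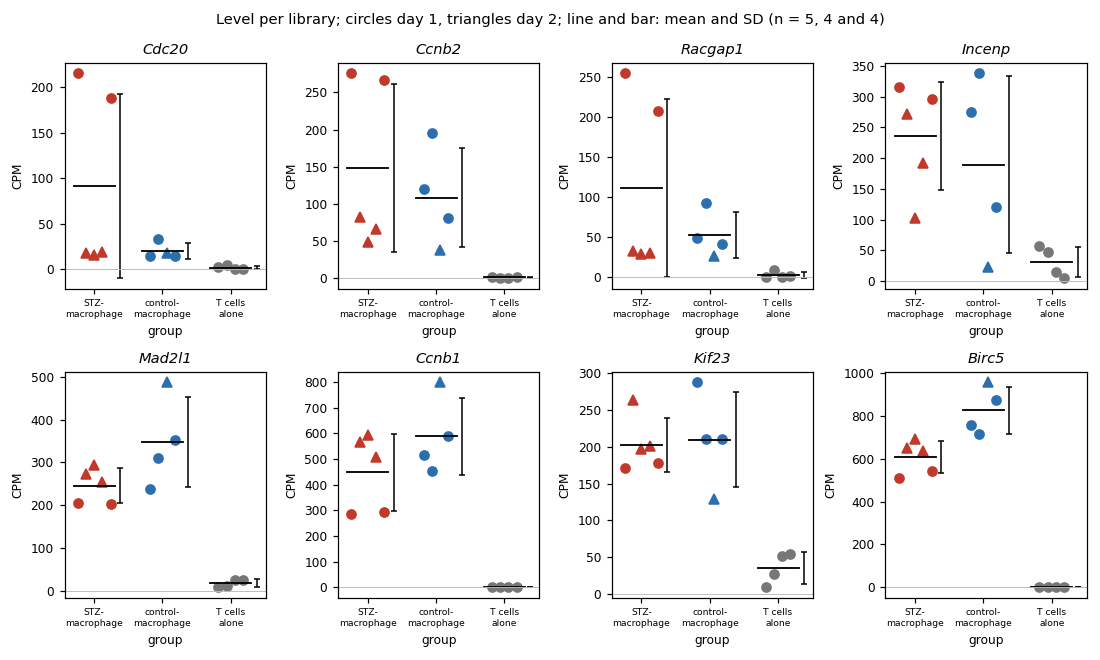
CPM of 4 members of the uneven set (top row) and a partner of each from the less uneven set (bottom row) in every library, by group; circles are day 1 and triangles day 2, the line is the mean and the bar beside it the SD (n = 5 STZ-macrophage, 4 control-macrophage and 4 T cells alone). Cdc20 reaches 215.5 and 189 CPM in the STZ-macrophage libraries of day 1 and at most 33.2 CPM elsewhere, while Mad2l1 spans 203 to 487 CPM over all co-cultures.

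Base composition ran along with this division. The median GC content of the longest coding transcript was 52.89% for the uneven 12 and 45.7% for the other 34, against 49.10% for all tested genes. Across the 46 members, GC content and the log2 fold change of STZ-macrophage against control-macrophage had a Pearson r of 0.62 (Spearman rho 0.67), and across 15414 tested genes r was 0.34. The relation was not particular to that comparison. For day 2 against day 1, r was -0.54 over the members and -0.34 over the tested genes. For control-macrophage replicate 3 against the mean of the other control-macrophage libraries, r was -0.53 and -0.37. Genes of these libraries share depth and preparation and are not independent replicates, so the values are a description. With an offset for GC content in each library, r over the members was 0.42 for STZ-macrophage against control-macrophage, and still no member was called. Cdc20 fell from 1.87 to 1.52, and Racgap1 stood at 1.27, slightly above its value without the offset. Within the uneven set the direction was mixed. Ccnb2, Cenpa and Kif11 (0.717 to 0.935) also rose with the offset, and the other members of that set fell, such as Mybl2 (0.939 to 0.480). Kif11, at 42.19% GC, and Cenpa, at 47.27%, belong to the uneven set with a GC content under the median of all tested genes. The part of GC content in the difference was not tested beyond this offset.

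**Figure D5:**
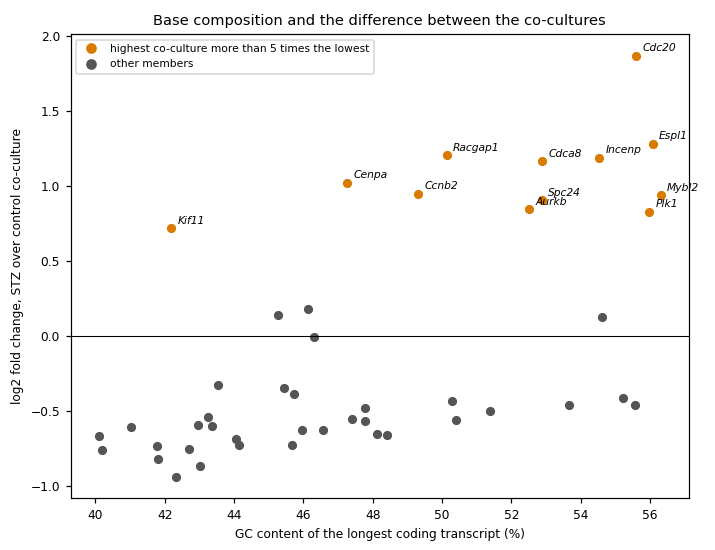
GC content of the longest coding transcript (x axis, percent) against the log2 fold change of STZ-macrophage over control-macrophage co-culture (y axis) for the 46 members; orange points are the 12 whose highest co-culture exceeded the lowest more than 5 times, grey points the other 34. The orange points are all above 0 and span 42.19 to 56.31% GC, and 31 of the other 34 lie below 0, of which Kif23 turns positive under other scalings.

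Other genes of division, taken from lists by function, were compared with T cells alone in the same way, where 20.8% of all tested genes were higher with STZ macrophages and 23.1% with control macrophages. With STZ macrophages and control macrophages in that order, 26 and 24 of 32 other spindle and cytokinesis genes were higher than in T cells alone, and 2 and 3 were lower. The counts were 23 and 26 of 31 for other kinetochore genes and 12 and 13 of 16 for other genes of mitotic entry, with none lower. Of 26 other checkpoint and APC/C genes, whose anaphase-promoting complex subunits also serve resting cells, 14 and 15 were higher, and of 19 condensin and cohesin genes 10 and 12 were higher and 3 and 2 lower. Of 30 DNA replication genes, 29 and 26 were higher. Of 22 MuvB, Rb and E2F regulators, which include repressors of the members, 8 and 9 were higher and 4 and 3 lower. Their medians were 5.31 and 5.41 for spindle and cytokinesis, 3.02 and 3.44 for kinetochore and 0.31 and 0.41 for the regulators, below the 8.39 and 8.51 of the 46 members. Between the co-cultures, Rfc4, a subunit of the clamp loader of DNA replication, was the only gene of these 7 lists to pass the test, at 195 ± 44.4 CPM with STZ macrophages and 299 ± 98.5 CPM with control macrophages (SD, n = 5 and 4; log2 fold change -0.84, adjusted p = 0.0467, edgeR). The median there was -0.47 for other kinetochore genes, as for the members, -0.37 for condensin and cohesin and -0.33 for DNA replication. It was -0.22 for mitotic entry, -0.17 for spindle and cytokinesis, -0.07 for the regulators and 0.04 for checkpoint and APC/C genes.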

How the data were processed

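RNA of the 13 libraries was measured by paired-end sequencing of cDNA from a template-switching kit (10 ng of RNA, integrity score above 8.0), aligned to GRCm38, per the labels' protocols. Which aligner, counter and annotation release were used is not given in the sources here, beyond the name DESeq2 in the submitters' processing notes. The authors deposited estimated counts per gene (55774 entries, 11.0% of values not whole), which were rounded for the tests, and a table of log2 values that they had adjusted beforehand, used only as an alternative with limma 3.58.1.

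The rounded counts entered edgeR 4.0.16 (R 4.3.3), with filterByExpr by group (minimum count 10), TMM, a term per group and for collection day, robust quasi-likelihood F tests on all 13 libraries, Benjamini-Hochberg adjustment over all 15781 genes, calls at 0.05. Standard errors divide the log2 fold change by the root of F. A model with a mean per group and day gave the within-day values. P-values and standard errors rest on a shared estimate of the spread between libraries within groups, over all 13 libraries. For the comparison of the co-cultures it thus includes the T cells alone and is not the spread of the co-cultures only. Tests were tried on simulated counts with the same dispersion for every gene and no day effect. The data differ from that setting, so the trial does not bear on the calls given here. The 46 members were given, and the members and lists were chosen with earlier results of these data known. Values in every library are given, per role, for the member with the highest mean CPM and that with the largest difference between the co-cultures, and for the 3 smallest and 3 largest log2 fold changes of each comparison; other members are given by ranges. In 1 library, 3 counts make 0.0490 to 0.173 CPM. With no molecular identifiers, intervals and floors cover counting error only. GC content, length and positions come from GENCODE vM21 (GRCm38).

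Replicate numbers are shared between groups. The correlation of deviations from group means was 0.161 to 0.352 in the 4 same-numbered pairs of control-macrophage co-culture and T cells alone. Pairs of different numbers reached 0.433. For STZ-macrophage with control-macrophage co-culture it was -0.202 to 0.474 in same-numbered pairs, and other pairs reached 0.501. For STZ-macrophage co-culture with T cells alone it was -0.415 to 0.331, and other pairs reached 0.529. The labels state no pairing, and these values do not settle it. The main tests therefore had no term for replicate number, and a replicate block was run only as an alternative. The alternatives were other scalings, no filter, DESeq2 1.42.0, no day term, only the groups compared, day 1 only, a replicate block, the authors' table, each library left out and, chosen after seeing the data, an offset for GC content and a promoter window of 60 bases before to 50 after the start.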

Additional observations from a re-analysis of the deposited data

Results flagged for a closer look

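For each of the 25 members with values in every library, the highest and lowest library of a group was set against the nearest other (Dixon's ratio, 95% critical value). Of the 75 groups so looked at, 5 held a value past it. The nominal rate of about 1 in 20 is for normal values and does not hold for groups near 0. Groups at 0 throughout, such as Bub1 in T cells alone, could not be flagged. STZ-macrophage replicate 1 had 36.0 CPM of Mybl2, against 10.6 CPM in the nearest of the other 4. T cells alone replicate 4 had 3.07 CPM of Foxm1, against 0.356 CPM in the nearest, and 2.92 CPM of Ccnb1, against 0.380 CPM. T cells alone replicate 1 had 10.5 CPM of Kif15, against 0.966 CPM in the nearest, and 0.0307 CPM of Ttk, which is 1 count, where the other 3 had 0.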

How the results depend on the processing

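Against T cells alone, 46 members were called higher in both comparisons under every alternative except DESeq2 (43, the other 3, Foxm1, Kif15 and Racgap1, having no adjusted p) and the authors' adjusted table (44, without Incenp and Cenpa, which against control macrophages turned to -0.34 and -0.095). Leaving out each library in turn gave 46 to 46. Between the co-cultures, the counts of members called higher and lower were 0 and 0 under all but DESeq2 (0 and 2) and the 9 co-cultures alone (3 and 13). The count for day 2 against day 1, 1 by the analysis reported, was 0 by RLE size factors, library sizes, no filter, the replicate block, the authors' table and the GC offset, 9 by DESeq2, 18 in the 9 co-cultures and 0 to 7 when 1 library was left out. The count for the difference between days was 1 by DESeq2, 6 in the 9 co-cultures and 0 to 1 when 1 library was left out. The cause of these changes was not tested.

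Of single members, Kif23 (-0.004 between the co-cultures) turned to 0.10 by RLE, 0.19 by library sizes, 0.18 without the filter, 0.10 by DESeq2, 0.17 in the 9 co-cultures, 0.43 with the replicate block, 0.24 in the authors' table and 0.14 with the GC offset, and ran from -0.29 to 0.18 with 1 library left out. Foxm1 (0.13) turned to -0.015 without the day term, -0.11 with the GC offset and ran from -0.12 to 0.38 with 1 library left out. Between the co-cultures the median over all genes moved from -0.13 to 0.07 with scaling, and the members' median stayed 0.24 to 0.39 below it. The replicate block changed no other call of a member.

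Limits: day 2 has 1 control-macrophage library, T cells alone have no day 2, and a library of 17.3 M counts limits what can be seen there. In T cells alone, a member at 0 is one not detectable at this depth.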
